A study of Mus musculus with 30 samples.

Results

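The comparison was between bone marrow-derived macrophage cultures of 20-month-old and 6-month-old mice, harvested after 2 days on bone slices under osteoclast-forming cytokines. The members were the 3 libraries of the 20-month 2-day group (replicates 2, 3 and 4) and the 3 of the 6-month 2-day group (replicates 1, 2 and 3), taken by their titles, 6 of the 30 libraries of the series. Both groups were wild type on the C57BL/6J strain, the inbred mouse line. Both received M-CSF at 25 ng/ml, the growth factor that keeps macrophages alive, and RANKL at 100 ng/ml, the cytokine that turns them into osteoclasts, so that the groups differed in the age of the donor alone as far as the labels go.

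The series compared wild-type mice with mice lacking Terc, the telomerase RNA, at 1, 6 and 20 months, with most libraries taken once large multinucleated cells had formed. Expression was measured by oligo-dT RNA sequencing and deposited as a value for each of 45706 genes, in a unit that the file headers do not name and that is used here as TPM (a level per transcript length that sums to the same total in every library). No 20-month culture lacked Terc, and the 2-day harvest was made at these ages alone, so neither genotype nor another age enters the groups compared. The spread behind the p-values was pooled over all 30 libraries of the series, Terc-lacking, 1-month and large-cell ones included. Nothing states whether the replicates were separate mice or separate wells, so this spread may be technical. Nothing states either whether the ages were cultured or sequenced together, and age and any such difference cannot be told apart.

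Osteoclasts are the bone-resorbing cells of the body and form from macrophage precursors. RANKL binds its receptor RANK, and signals through calcium and AP-1 switch on the transcription factor NFATc1, which turns on acid secretion, collagen-cleaving enzymes and the proteins that fuse the precursors into multinucleated cells. A culture at 2 days is early in this course, and it can also hold the other adherent cells of marrow, such as fibroblast-like stromal cells.

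The 6 libraries resembled each other closely. Each had 12711 to 12800 genes at 1 TPM or more, its 50 highest genes took 26.2 to 28.5% of all TPM, and mitochondrially encoded genes took 5.84 to 6.30%. The correlation of log2(scaled TPM + 1), over the 12614 genes tested below, was 0.986 to 0.989 with libraries of the same age on average. Between single libraries of the 2 ages it was 0.957 to 0.971. No pair of libraries held identical values. The female transcript Xist stood at 0.0056 to 0.254 TPM and the Y-linked gene Eif2s3y at 46.7 to 61.7 TPM in all 6. Read depth was not known, since TPM keeps no counts, and no counting error can be given.

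Acp5, Ctsk, Atp6v0d2 and Dcstamp, which mark osteoclasts, were detected in all 6 libraries but far under their level in large-cell cultures, where Acp5 averaged 9196 TPM at 20 months and 4967 TPM at 6 months. The late markers Calcr, the calcitonin receptor, and Oscar, a costimulatory receptor, were at most 0.180 and 1.20 TPM. The macrophage genes were high, with Lyz2, lysozyme, the highest of all genes at 19319, 18673 and 21399 TPM at 6 months. The libraries are therefore called 2-day cultures and not osteoclasts below.

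Of the 12614 genes tested, those averaging 1 TPM or more across all libraries, 2213 (17.5%) passed an adjusted p of 0.05 (limma, Benjamini-Hochberg), 1175 higher at 20 months (9.32%) and 1038 lower (8.23%). The median log2 difference over all tested genes was 0.03, and this background stands behind every count below. The libraries of the ages did not overlap for 50.8% of the tested genes, with 26.8% higher at 20 months and 24% higher at 6 months. The total was smaller when 1 library was left out, at 1292 without 20-month replicate 3, 1349 without 6-month replicate 2 and 1409 without 6-month replicate 1, and it was 4680 when the spread was taken from the 2-day libraries alone. Log2 differences below are 20 minus 6 months on log2(scaled TPM + 1), which understates the change of genes near 1 TPM, and levels are listed for replicates 2, 3 and 4 at 20 months and 1, 2 and 3 at 6 months.

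Of 23 resorption genes, 6 were higher at 20 months and 1 was lower, and the median difference was 0.20 log2. The rises lay with 2 of the 4 enzyme genes, Acp5 and Ctsk, and 4 of the 15 acid-secretion genes, and none of the 4 adhesion genes was higher. The other 2 enzyme genes had a negative difference that was not called. In bulk cultures, a change in the share of a cell type and a change in transcripts per cell cannot be told apart, here or in any group below.

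Acp5 (ENSMUSG00000001348, GRCm38 chromosome 9 at 22126727 to 22135711) encodes tartrate-resistant acid phosphatase, the enzyme stained to count osteoclasts. It stood at 173, 186 and 137 TPM at 20 months and 23.5, 16.9 and 23.1 TPM at 6 months. Every 20-month library was several-fold above every 6-month one, and the fitted difference was 2.89 ± 0.31 log2 (adjusted p = 1.61e-06, limma), or 7.43-fold. Ctsk, the cathepsin that cuts bone collagen, stood at 227, 242 and 166 against 36.8, 34.6 and 45.1 TPM (2.40 ± 0.28, adjusted p = 3.59e-06). The groups did not overlap for either enzyme, and 20-month replicate 4 was the lowest of its group for both.

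Atp6v0d2, a proton-pump subunit that is also needed for precursor fusion, stood at 23.3, 21.8 and 15.1 against 1.48, 1.28 and 3.13 TPM (2.74 ± 0.26, adjusted p = 1.43e-07). Slc9b2, a sodium/proton exchanger of osteoclasts, stood at 9.38, 12.2 and 5.31 against 1.63, 0.431 and 1.97 TPM (1.96 ± 0.26, adjusted p = 1.57e-05). Replicate 4 again had the smallest of the 20-month values for both, yet it lay above all 3 libraries of the younger age. Tcirg1, the pump subunit lost in osteopetrosis, and Snx10, a sorting nexin of the same vesicles, rose by less (0.84 ± 0.25 and 0.61 ± 0.19). Each lost the call in 5 of the 6 fits that left out a library, all but that without 6-month replicate 3 for Tcirg1 (adjusted p up to 0.0731) and all but that without 20-month replicate 2 for Snx10 (up to 0.0965).

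Of the 15 acid-secretion genes, the other 11 were not called, and 12 of the 15 had a positive difference (median 0.31 log2). With the spread of the 2-day libraries alone Atp6v1b2 and Atp6v1c1, further pump subunit genes, passed as well (limma adjusted p of 0.000536 and 0.00451). The general pump subunit gene Atp6v1e1 stood at 282, 302 and 283 against 297, 308 and 296 TPM (-0.05 ± 0.14, adjusted p = 0.86), and Clcn7, the chloride transporter of the ruffled border, at 42.8, 60.9 and 51.02 against 45.3, 44.03 and 34.7 TPM (0.31 ± 0.20, adjusted p = 0.334). Car2, the carbonic anhydrase that supplies protons, stayed between 2.83 and 4.71 TPM in all 6 libraries. Mmp9, a gelatinase that is abundant in osteoclasts, ranged from 210 to 441 TPM with the ages overlapping, the lowest value in 6-month replicate 3. Itgb3, the osteoclast integrin chain, also overlapped at 45.2, 37.8 and 37.3 against 46.6, 53.8 and 43.0 TPM. Src, the kinase of the ruffled border, was the 1 member that was lower, at 42.4, 43.0 and 43.5 against 61.6, 53.6 and 55.0 TPM (-0.39 ± 0.12), a call lost in every fit that left out a library except that without 6-month replicate 2 (adjusted p up to 0.133).

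**Figure D1:**
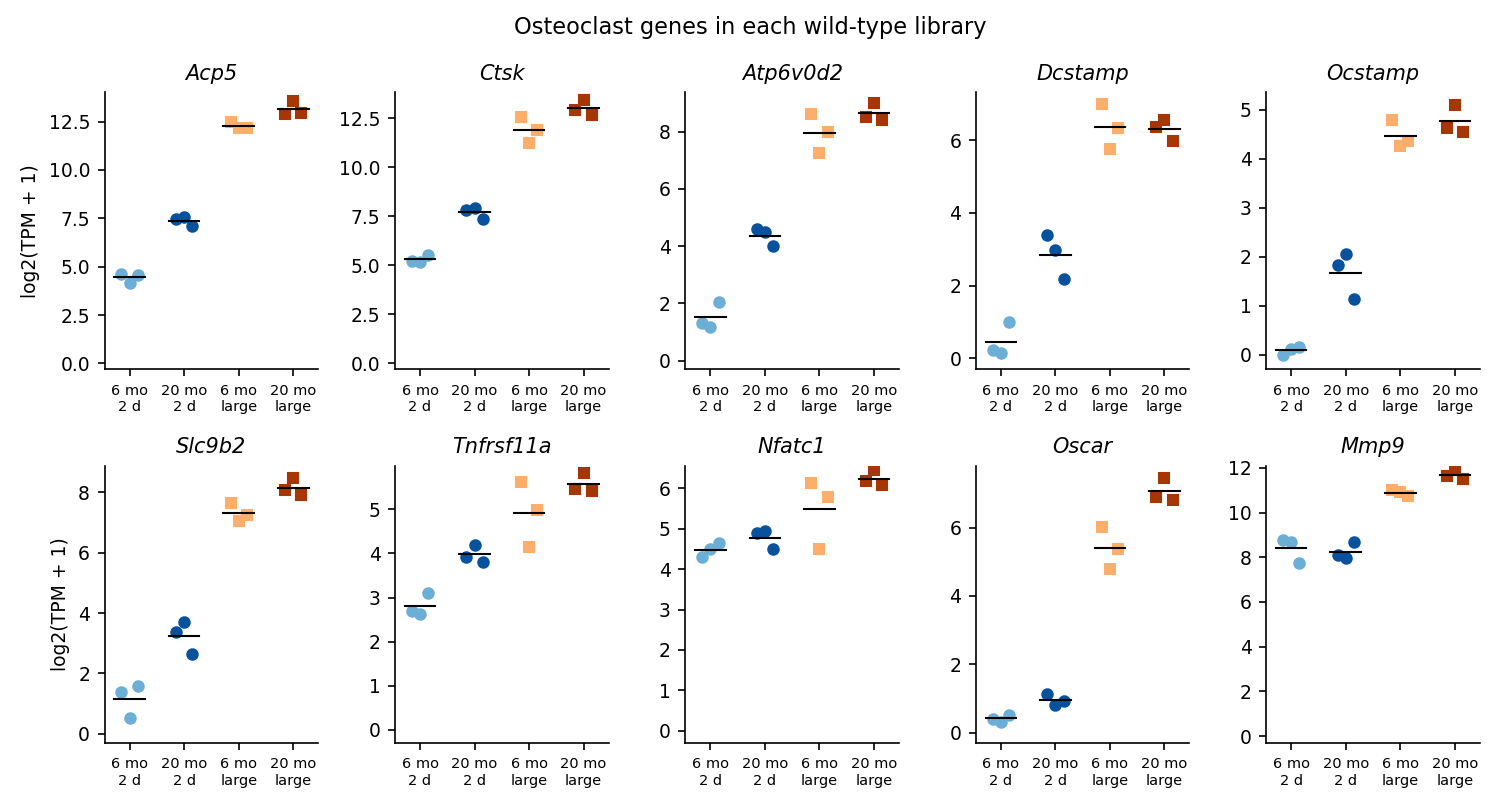
Points are single libraries and black bars group means, on a log2(TPM + 1) axis, for 10 osteoclast genes in wild-type cultures at 2 days (circles) and with large cells (squares), 6 and 20 months. At 2 days Acp5, Ctsk, Atp6v0d2, Dcstamp, Ocstamp, Slc9b2 and Tnfrsf11a lie higher in every 20-month library, Nfatc1 and Mmp9 overlap, and Acp5 and Ctsk lie far under their large-cell levels.

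Of 14 fusion genes tested, 6 were higher and 2 were lower. Dcstamp, the transmembrane protein without which precursors do not fuse, stood at 9.41, 6.96 and 3.58 TPM at 20 months and 0.172, 0.106 and 0.992 TPM at 6 months (2.19 ± 0.30, adjusted p = 2.66e-05). Its partner Ocstamp stood at 2.53, 3.16 and 1.20 against 0, 0.0803 and 0.112 TPM (1.38 ± 0.24, adjusted p = 0.000284). Both were under 1 TPM in every 6-month library, where log2(TPM + 1) understates a change, and the groups did not overlap for either. The receptor gene Sirpa (0.85 ± 0.15), the tetraspanin gene Cd9 (0.64 ± 0.15) and the protease gene Adam8 (0.66 ± 0.14) rose by smaller steps from high levels. Cd81 and Tspan7, further tetraspanins, were lower (-0.36 ± 0.12 and -0.60 ± 0.20), but each call was lost in 5 of the 6 fits without 1 library, those without 20-month replicate 4 (Cd81) and 20-month replicate 2 (Tspan7) being the exceptions, with adjusted p up to 0.2 and 0.207. The count of lower fusion genes was 0 without 20-month replicate 3 or any one of the 6-month replicates.

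Of 26 signalling genes of the osteoclast lineage, 13 were higher and none was lower, with a median of 0.58 log2, and 10 to 11 were called with 1 library left out. Among the receptors, Tnfrsf11a, which encodes RANK itself, stood at 14.3, 17.3 and 13.1 against 5.49, 5.14 and 7.56 TPM (1.14 ± 0.21, adjusted p = 0.000582). Csf1r, the M-CSF receptor, stood at 399.6, 494 and 438 against 254, 240.2 and 293 TPM (0.76 ± 0.16, adjusted p = 0.00156). Trem2, a costimulatory receptor of the lineage, was also higher (0.93 ± 0.20, 336 against 177 TPM on average). All 3 receptors had every 20-month library above every 6-month one.

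Beneath the receptors, the kinases Syk (0.80 ± 0.14) and Btk (0.87 ± 0.14) and the phospholipase Plcg2 (0.79 ± 0.10) rose, the steps that raise calcium in the cell. Syk stood at 69.2, 73.5 and 74.9 against 42.0, 39.3 and 42.0 TPM, with less spread inside each age than between them. Fcer1g, the Fc receptor gamma chain that pairs with the costimulatory receptors, was at 718, 721 and 751 against 365, 402 and 454 TPM (0.85 ± 0.24), a call lost without 6-month replicate 1 (adjusted p = 0.0645). The other adaptor, Tyrobp (DAP12), did not pass at 926, 1002 and 1003 against 617, 567 and 736 TPM (0.62 ± 0.25, adjusted p = 0.0926). With the spread of the 2-day libraries alone Tyrobp was called higher.

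Of 10 transcription factors, 5 were higher. Spi1 (PU.1), which sets up the myeloid lineage, stood at 168, 168 and 199 against 105, 101 and 117 TPM (0.72 ± 0.17, adjusted p = 0.00385). Mitf (0.82 ± 0.16) and its relative Tfec (0.55 ± 0.13), partners of PU.1 on osteoclast genes, and Jdp2 (0.76 ± 0.19), an AP-1 repressor needed for osteoclast formation, were higher in all 3 libraries of the older age. Fos rose too (0.85 ± 0.29) but lost the call in each of the 6 fits that left out a library. Nfatc1, the master regulator of the programme, stood at 28.9, 29.7 and 21.4 against 18.8, 21.6 and 23.9 TPM. Its groups overlapped and the difference was not called (0.29 ± 0.19, adjusted p = 0.352), and neither were those of the NF-kappaB genes Nfkb1, Nfkb2 and Relb. With the spread of the 2-day libraries alone Relb passed (limma adjusted p = 0.00988), while Nfkb1 and Nfkb2 did not.

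Of 14 genes known to restrain osteoclast formation, 5 were higher and 2 lower, and none was lower on the TPM as deposited. Tnfrsf11b encodes osteoprotegerin, the decoy that binds RANKL, and stood at 45.8, 38.9 and 36.1 against 75.5, 84.2 and 73.4 TPM (-0.93 ± 0.26, adjusted p = 0.0147). All 3 libraries of the older age lay under all 3 of the younger, but the call was lost without 20-month replicates 3 or 4 or 6-month replicate 2 (adjusted p up to 0.0611). Tnfaip3 (A20), a brake on NF-kappaB, was lower as well (-0.86 ± 0.21). The repressor Irf8, which holds precursors in the macrophage state, was higher, at 87.9, 109 and 99.8 against 56.2, 57.4 and 62.99 TPM (0.73 ± 0.10, adjusted p = 2.66e-05). The phosphatase gene Ptpn6 (0.71 ± 0.12), the adaptor gene Dok3 (1.01 ± 0.24) and Id2 (0.73 ± 0.19) were also higher.

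Of 18 macrophage genes tested, 7 were higher, none was lower, and the median was 0.46 log2. Lyz2 stood at 31545, 36183 and 34142 against 19319, 18673 and 21399 TPM (0.78 ± 0.18, adjusted p = 0.00428), so that the single most abundant transcript was 1.72-fold higher. Apoe, the lipid carrier, stood at 7071, 8929 and 6502 against 2359, 2256 and 3633 TPM (1.47 ± 0.27, adjusted p = 0.000539). Cd68 (1.00 ± 0.17), a lysosomal marker, the chemokine receptor Cx3cr1 (1.21 ± 0.25) and the complement gene C1qc (0.83 ± 0.18) passed as well. Other surface markers did not pass, with Adgre1 (F4/80) at 405, 458 and 484 against 380.4, 354.4 and 322 TPM (0.35 ± 0.21, adjusted p = 0.29) and Itgam (CD11b) at 472, 546 and 542 against 406, 386 and 374 TPM (0.42 ± 0.17, adjusted p = 0.101). Adgre1 and Itgam were called higher with the spread of the 2-day libraries alone. Of the 6 Fc receptor genes, 3 were higher (1 without 6-month replicate 1), and Fcgr2b, the inhibitory receptor for IgG, kept its call with any library left out (355, 378 and 399 against 203, 216 and 190.1 TPM, 0.89 ± 0.16).

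Of 43 lysosome genes, 23 were higher and 1, Smpd1, was lower, with a median of 0.445 log2. Without 6-month replicate 2 the count was 14, and without 20-month replicate 4 it was 15. Ctsd, cathepsin D, stood at 7128, 7661 and 7032 against 3881, 3864 and 4492 TPM (0.84 ± 0.17, adjusted p = 0.00131), and Ctss, cathepsin S, at 1617, 1833 and 1716 against 858, 841 and 903 TPM (0.99 ± 0.14, adjusted p = 4.66e-05). Both cathepsins varied far less inside each age than between them. Among glycosidases, Gusb (0.60 ± 0.12) and Neu1 (0.64 ± 0.13) rose, and among membrane proteins Scarb2 (0.63 ± 0.11) and Laptm5 (0.73 ± 0.12).

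Because the lysosome genes moved together, the 250 bases before the start of each were searched for TCACGTGA, the core of the CLEAR element known as a binding site of the MiT family (Mitf, Tfec, Tfeb). It reads the same on both strands. It was found at 3 of the 35 lysosome genes with a RefSeq promoter (8.57%), Ctsa, Ctsd and Mcoln1, against 0.907% of all 27025 genes and 0.785% of all 32851 promoters of the same length. The stretches of RefSeq (GRCm38.p6) around the match in 2 genes that rose are shown, 5′ to 3′ on the strand of the gene, with the motif in capitals. Ctsd lies at chr7:142387889-142387956 on the minus strand and Ctsa at chr2:164833730-164833772 on the plus strand.
Ctsd: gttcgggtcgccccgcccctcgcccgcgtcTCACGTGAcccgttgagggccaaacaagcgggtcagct
Ctsa: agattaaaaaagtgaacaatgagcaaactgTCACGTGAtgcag
The first motif base is 99 bases before the start of Ctsd and 13 before that of Ctsa. Ctsa stood at 443, 472 and 483 against 366, 343 and 375 TPM (0.37 ± 0.11, adjusted p = 0.0215), a smaller difference than for Ctsd and one whose call was lost in 4 of 6 fits without 1 library. A match is a description of the letters and not a bound site. The other lysosome genes that rose, Ctss included, held no match in this window or had no promoter in the table.

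Of 28 DNA replication genes, 14 were higher and none was lower (median 0.48 log2), and of 24 mitosis genes 14 were higher and none was lower (median 0.58). All 24 mitosis genes had a positive difference. Mki67, the proliferation antigen Ki-67, stood at 62.6, 69.0 and 58.2 against 30.5, 30.2 and 37.3 TPM (0.93 ± 0.22, adjusted p = 0.00435). Bub1b, a spindle checkpoint kinase, stood at 47.3, 37.9 and 38.7 against 15.8, 17.4 and 20.3 TPM (1.16 ± 0.26, adjusted p = 0.00375). The groups were apart for both, by more than the spread inside either age.

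Top2a, the topoisomerase that untangles chromosomes, Aurkb, a mitotic kinase, and Ccnb2, a mitotic cyclin, rose by 0.84 ± 0.19, 0.91 ± 0.21 and 0.88 ± 0.21 log2. Among replication genes, the licensing factor Cdt1 (0.77 ± 0.17), its inhibitor Gmnn (0.84 ± 0.20), the initiation gene Gins1 (0.98 ± 0.21) and the ligase Lig1 (1.01 ± 0.25) were higher. Gins1 stood at 19.8, 26.1 and 20.5 against 10.2, 10.5 and 10.8 TPM, with 20-month replicate 3 the highest. The replication count was 6 without 20-month replicate 3, 6-month replicate 1 or 6-month replicate 2, 7 without 20-month replicate 2 and 8 without 20-month replicate 4, and 9 with no filter on low values. The mitosis count was 6 without 6-month replicate 1, 7 without 20-month replicate 3 and 8 without 6-month replicate 2. It was also 7 on the TPM as deposited, with no scaling between libraries.

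The CCAAT box, read as CCAAT or, on the other strand, ATTGG, is a known element of promoters active late in the cell cycle. It was found in 18 of the 21 mitosis genes with a RefSeq promoter (85.7%), against 37.5% of all genes and 33.8% of all promoters. Among called genes with a RefSeq promoter it was found in 9 of 12 of mitosis (75%), 7 of 10 collagens (70%) and 7 of 13 contractile genes (53.8%). The promoters of Bub1b and Mki67 are shown for their place in the list, with matches in capitals, from chr2:118597961-118598210 on the plus strand and chr7:135716380-135716629 on the minus strand.
Bub1b: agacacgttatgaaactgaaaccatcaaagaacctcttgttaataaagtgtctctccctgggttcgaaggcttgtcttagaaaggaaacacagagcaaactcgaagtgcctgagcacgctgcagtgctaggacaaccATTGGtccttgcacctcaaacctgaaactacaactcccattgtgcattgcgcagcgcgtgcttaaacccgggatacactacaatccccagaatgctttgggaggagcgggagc
Mki67: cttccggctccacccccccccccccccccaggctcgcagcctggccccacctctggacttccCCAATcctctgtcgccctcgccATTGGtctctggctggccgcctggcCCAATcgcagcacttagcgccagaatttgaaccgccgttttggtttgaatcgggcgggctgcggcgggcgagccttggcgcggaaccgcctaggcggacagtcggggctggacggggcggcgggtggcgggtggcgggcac
Bub1b holds 1 match, 113 bases before the start, and Mki67 holds 3, the first 188 bases and the last 141 bases before it. Among the mitosis genes that were called, 9 of 12 with a promoter held the box (75%), a smaller share than in the whole list.

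Of 22 contractile genes tested, 17 were lower at 20 months and none was higher, with a median of -1.41 log2, and 15 were lower with any 1 library left out. The list holds the smooth-muscle actins and myosins, the proteins that bundle or regulate actin filaments, and the integrins that anchor them to matrix. All 5 genes of the actin and myosin group tested were lower, the myosin kinase Mylk among them, and so were 9 of 13 actin-binding genes and 3 of 4 integrins.

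Acta2, smooth-muscle alpha actin and the usual marker of myofibroblasts, stood at 1565, 1245 and 1707 TPM at 20 months and 5185, 4749.8 and 4364 TPM at 6 months (-1.67 ± 0.42, adjusted p = 0.00745). Tagln (transgelin) stood at 1429, 1223 and 1435 against 3996, 4072 and 3659 TPM (-1.52 ± 0.38, adjusted p = 0.00691). Both genes were abundant in the younger cultures, and no 20-month library reached the lowest 6-month one. Cnn1 (calponin, GRCm38 chromosome 9 at 22099216 to 22109630) stood at 57.1, 55.3 and 73.0 against 338, 288 and 265 TPM (-2.24 ± 0.41, adjusted p = 0.000555), or 4.73-fold lower. Actg2 and Acta1, the enteric and skeletal actins, fell as well (-2.03 ± 0.45 and -2.16 ± 0.43), but these actin genes are nearly identical in sequence and the counting may have split reads between them.

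Mylk, the kinase that starts smooth-muscle contraction, stood at 4.84, 4.43 and 6.37 against 32.2, 28.2 and 23.7 TPM (-2.18 ± 0.14, adjusted p = 3.43e-10). Lmod1, which nucleates actin filaments in smooth muscle, stood at 7.59, 5.97 and 8.996 against 47.8, 39.1 and 36.3 TPM (-2.27 ± 0.28, adjusted p = 7.66e-06). Myh11, the smooth-muscle myosin heavy chain, was lower from a low level (1.94 against 8.62 TPM, -1.60 ± 0.22). Itga11, a collagen-binding integrin chain of fibroblasts, stood at 3.74, 3.92 and 6.02 against 32.2, 22.3 and 26.4 TPM (-2.28 ± 0.30, adjusted p = 1.86e-05). The muscle genes Actc1 and Des were at most 0.0763 and 1.34 TPM. Flna, Smtn, Tpm2 and Cnn2 did not pass, but all were called lower with the spread of the 2-day libraries alone. Itga8, at 2.15, 3.56 and 2.46 against 1.14, 0.958 and 2.08 TPM, had a difference in the opposite direction that passed in neither fit (0.59 ± 0.26, adjusted p = 0.122).

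The promoters of the list were searched for the CArG box, the element bound by serum response factor, on both strands. It was found at 4 of the 20 contractile genes with a RefSeq promoter (20%), Actc1, Cnn2, Fhl1 and Myl9, against 1.62% of all genes and 1.47% of all promoters. Myl9, the smooth-muscle myosin light chain, stood at 381, 302 and 378 against 1265, 1140.3 and 1095 TPM (-1.72 ± 0.42, adjusted p = 0.00557), and Fhl1, a LIM-domain protein of muscle, at 24.3, 19.98 and 27.9 against 146, 145 and 118 TPM (-2.44 ± 0.33, adjusted p = 2.61e-05). No 20-month library reached a 6-month one for either gene, and their promoters are shown with the box in capitals, from chr2:156775214-156775463 and chrX:56779433-56779682, both on the plus strand.
Myl9: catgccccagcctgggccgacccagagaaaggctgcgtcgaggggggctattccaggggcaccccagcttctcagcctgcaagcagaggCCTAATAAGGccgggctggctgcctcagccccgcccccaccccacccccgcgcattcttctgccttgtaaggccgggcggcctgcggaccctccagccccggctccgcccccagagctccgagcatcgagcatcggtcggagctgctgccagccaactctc
Fhl1: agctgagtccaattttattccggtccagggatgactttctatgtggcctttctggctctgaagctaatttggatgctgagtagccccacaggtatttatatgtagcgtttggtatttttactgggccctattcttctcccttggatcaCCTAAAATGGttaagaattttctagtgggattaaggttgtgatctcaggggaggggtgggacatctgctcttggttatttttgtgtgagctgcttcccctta
The box begins 161 bases before the start of Myl9 and 102 before the RefSeq start of Fhl1 shown here. That Fhl1 start lies inside the annotated gene (GRCm38 chromosome X at 56731787 to 56793346), and its use in these cultures was not tested. Cnn2, which held one too, was not called, at 205, 179 and 202 against 375, 355 and 343 TPM (-0.87 ± 0.33, adjusted p = 0.0751). Of the 13 called contractile genes with a promoter, 11 had no match in this window.

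Of 19 collagen genes, 12 were lower and 2 were higher, with a median of -1.14 log2. The count of lower genes was 5 without 20-month replicate 3 and 7 without 20-month replicate 2, 6-month replicate 1 or 6-month replicate 2. All 7 fibrillar collagen genes were lower, as were 3 of 5 basement membrane genes. Col1a1, the main chain of bone and skin collagen, stood at 259, 230.0 and 297 against 711, 672 and 585 TPM (-1.32 ± 0.36, adjusted p = 0.0119, and 0.0576 without 20-month replicate 3). Col4a1, a basement membrane chain, stood at 96.6, 89.8 and 101 against 292, 276 and 276 TPM (-1.54 ± 0.41, adjusted p = 0.0102). Neither gene had overlapping groups. Col12a1 (-1.36 ± 0.27) and Col4a5 (-1.43 ± 0.26) gave the smallest p-values.

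Col18a1, a basement membrane collagen, was higher (12.3, 11.9 and 13.8 against 9.30, 7.14 and 9.51 TPM, 0.50 ± 0.13), and so was Col14a1 (21.6, 29.96 and 21.4 against 9.23, 9.16 and 14.1 TPM, 1.09 ± 0.32). Col18a1 lost the call without 20-month replicate 4 or 6-month replicate 2, and Col14a1 without 20-month replicate 3 or 6-month replicates 1 or 2. Col6a3 was high but did not differ beyond the spread (129, 84.3 and 93.8 against 88.6, 88.8 and 75.1 TPM, 0.26 ± 0.36, adjusted p = 0.715).

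**Figure D2:**
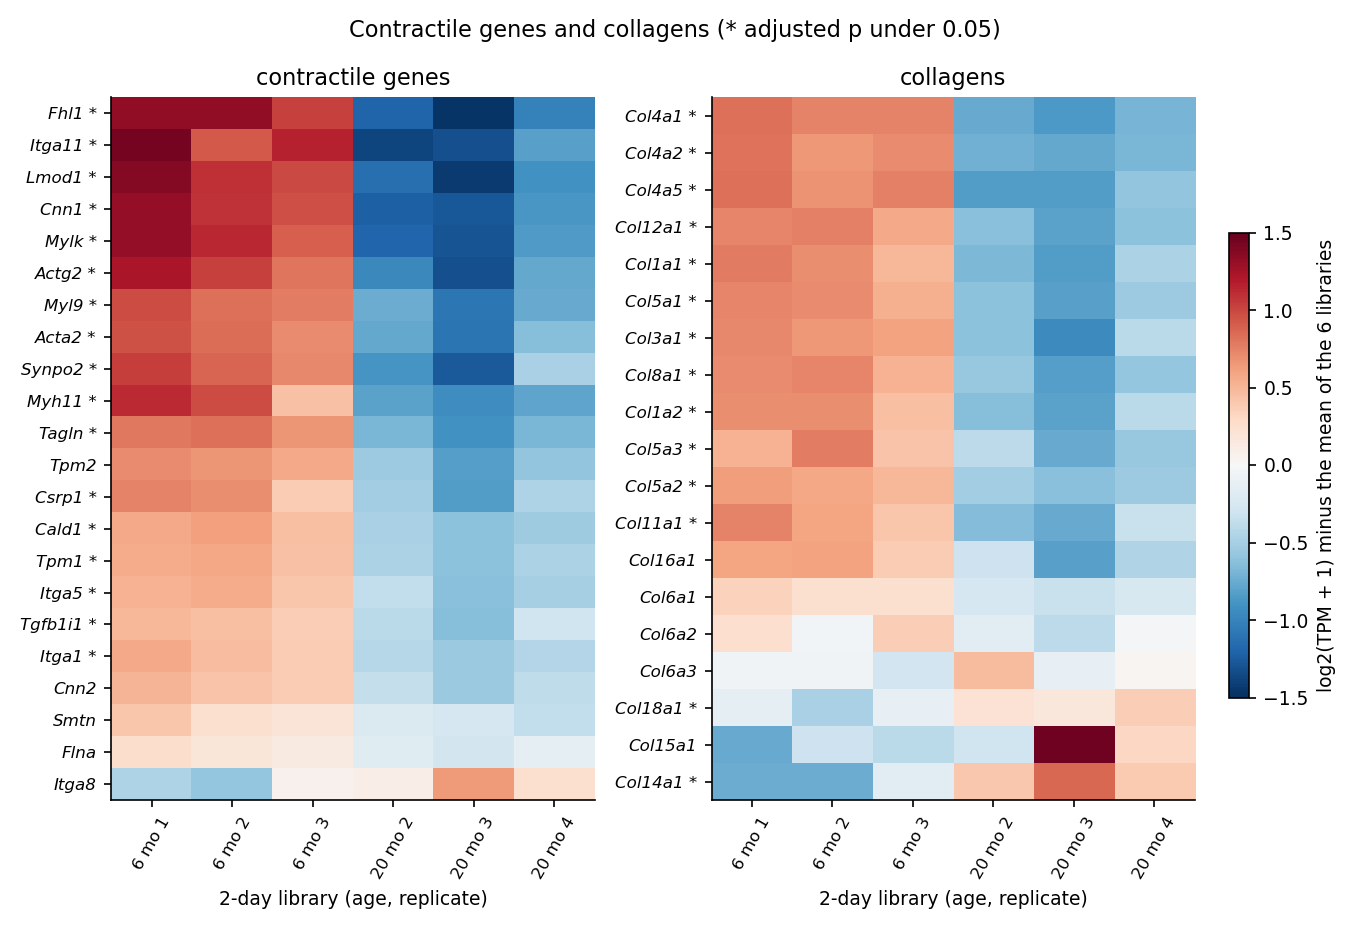
Each row is a tested gene of the contractile list (left, 22) or the collagen list (right, 19) and each column a 2-day library. The colour gives log2(TPM + 1) minus the gene's mean over the 6 libraries, red for higher and blue for lower, with an asterisk where adjusted p is under 0.05. The 3 libraries of each age share their colour in nearly every called gene, and 1 contractile gene (Itga8) and 4 collagen genes, Col14a1 and Col18a1 among them, run opposite to the rest.

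Genes that process and bind collagen were lower too, 8 of 17 processing genes and 10 of 18 glycoproteins and proteoglycans. Lox, the enzyme that cross-links collagen, stood at 530.2, 429.5 and 510.1 against 1419.6, 1594 and 1376 TPM (-1.58 ± 0.33, adjusted p = 0.00158). Npnt (nephronectin), an integrin ligand, stood at 15.1, 16.5 and 12.7 against 34.5, 35.8 and 35.6 TPM (-1.20 ± 0.19, adjusted p = 0.000161). No 20-month library reached the lowest 6-month one for either gene. The proteinase Bmp1 (-0.96 ± 0.23) and the hydroxylase gene P3h1 (-0.74 ± 0.16), which trim and modify procollagen, were lower, while Plod1 was higher by a small step (0.24 ± 0.08) that lost the call in every fit without 1 library except that without 20-month replicate 2.

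Of the abundant glycoproteins, Sparc stood at 1026, 851 and 1042 against 2423, 2319 and 2080.2 TPM (-1.23 ± 0.34) and Thbs1, thrombospondin 1, at 1125, 964 and 1189 against 2758, 2892 and 2533 TPM (-1.32 ± 0.35). Both lost the call without 20-month replicate 3 (adjusted p of 0.0633 and 0.0507). The processing count was 5 without 20-month replicates 2 or 3 or 6-month replicates 1 or 2. The glycoprotein count was 4 without 20-month replicate 3 and 6 without 20-month replicate 2 or any one of the 6-month replicates. Of 20 matrix proteases and inhibitors, 5 were lower and 1 was higher. Adamts4, an aggrecan-cutting protease, stood at 13.3, 9.66 and 14.8 against 39.1, 37.9 and 26.9 TPM (-1.37 ± 0.31, adjusted p = 0.00341). The count of lower genes was 2 without 20-month replicate 3, 6-month replicate 1 or 6-month replicate 2. When the groups whose titles carry an extra mark were left out of the fit, the lower genes numbered 7 for collagens, 5 for collagen processing, 6 for glycoproteins and proteoglycans and 2 for proteases and inhibitors.

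Markers of stromal and osteoblast cells are given beside these groups, since such cells express matrix and contractile genes. Of the 10 tested, 2 were lower and 1 was higher. Summed over all 18 markers the level was 203 to 233 TPM at 20 months and 264 to 265 TPM at 6 months. Pdgfrb, a receptor of pericytes and fibroblasts, stood at 34.9, 33.4 and 32.9 against 61.4, 56.0 and 61.2 TPM (-0.79 ± 0.25), and lost the call in each fit without 1 library. The mesenchymal transcription factors Runx2 (19.2, 17.1 and 13.8 against 17.7, 20.4 and 22.4 TPM) and Prrx1 (36.6, 25.7 and 29.5 against 31.3, 31.6 and 33.5 TPM) were not called, and the osteocalcin gene Bglap was listed at 0 in all 6 libraries. The osteocalcin copy Bglap2 was the marker called higher, at 6.91, 2.62 and 11.4 against 0.516, 2.37 and 2.91 TPM (1.30 ± 0.42, adjusted p = 0.0334), a call lost in 4 of the 6 fits without 1 library (adjusted p up to 0.206). The part of these cells in the contractile and matrix differences was not tested.

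TGF-beta is the growth factor best known for raising contractile and matrix genes, and it also acts on osteoclast precursors. Of 27 family genes tested, 10 were lower and none was higher, with a median of -0.47 log2. The count was 6 without 20-month replicate 3 or 6-month replicates 1 or 2, and 5 when the groups with a marked title were left out of the fit. Among the ligands, Tgfb3 stood at 22.4, 17.97 and 24.04 against 101, 98.2 and 84.6 TPM (-2.08 ± 0.32, adjusted p = 9.17e-05), and Tgfb2 at 12.8, 8.29 and 9.40 against 32.6, 39.3 and 29.9 TPM (-1.63 ± 0.20, adjusted p = 1.02e-05). Tgfb1, the ligand stored in bone matrix, was not called at 119, 128 and 138 against 119, 124 and 118 TPM (0.09 ± 0.14, adjusted p = 0.757).

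None of the 7 receptor genes was called. With the spread of the 2-day libraries alone, members such as Tgfbr1, Acvr1 and Bmpr1a passed (limma adjusted p of 0.00232, 0.000882 and 0.0144). Of the extracellular regulators, 5 of 7 were lower. Ltbp1, which stores latent TGF-beta in the matrix, stood at 50.01, 43.4 and 45.7 against 79.5, 82.2 and 79.4 TPM (-0.78 ± 0.13, adjusted p = 0.000247), and Fst (follistatin), which binds activins, at 10.7, 10.8 and 12.3 against 34.3, 35.6 and 29.4 TPM (-1.45 ± 0.31, adjusted p = 0.00215). The groups were apart for both. Of 9 genes of the insulin-like growth factor system, 1 was higher and 2 were lower (4 lower when the filter was taken from the 2-day libraries), and the median was -0.19 log2. The ligand gene Igf1 was the higher one (69.2, 69.5 and 57.9 against 29.6, 20.9 and 32.1 TPM, 1.23 ± 0.24, adjusted p = 0.00114).

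**Figure D3:**
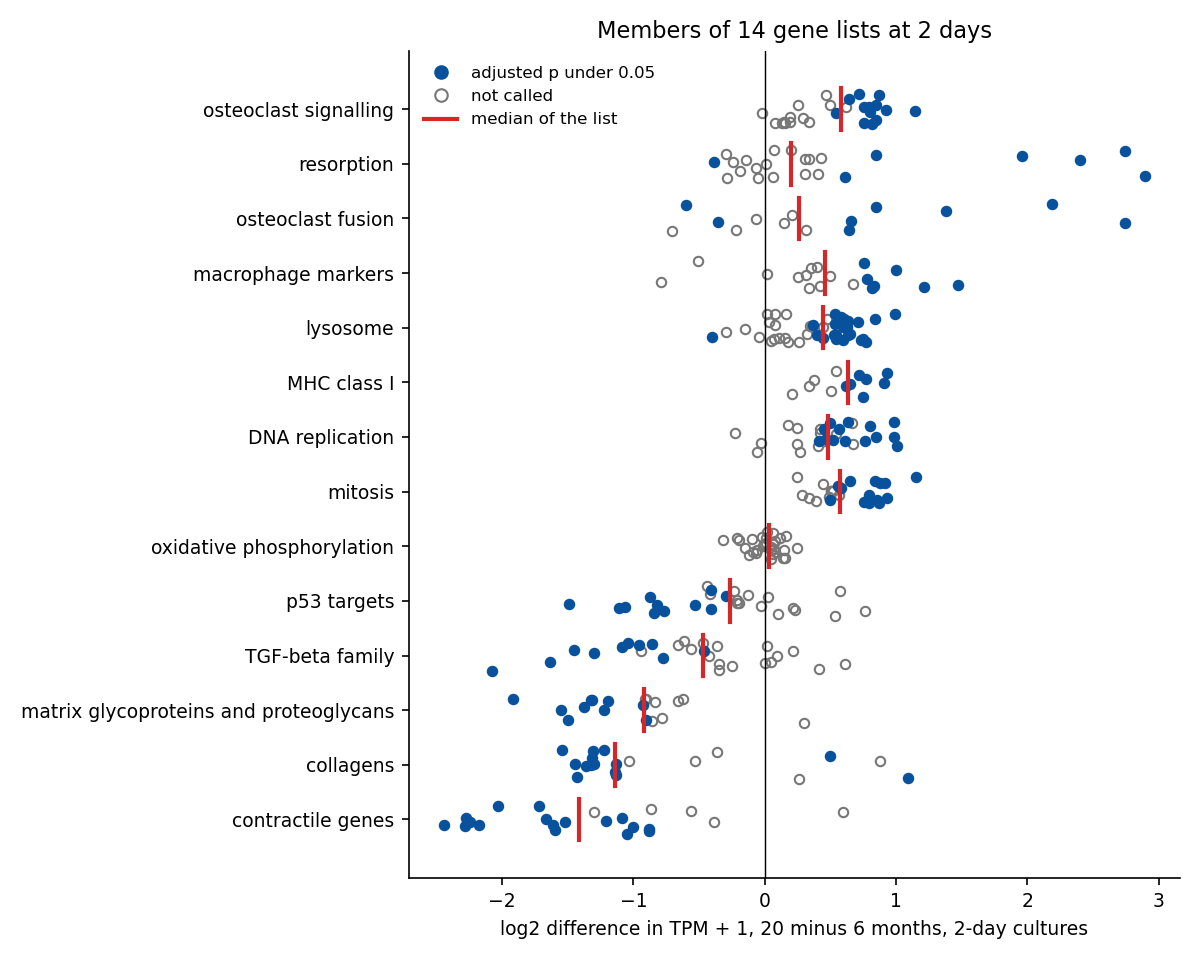
Each point is a tested gene of 1 of 14 lists, placed by its log2 difference (20 minus 6 months, 2-day cultures) and filled where adjusted p is under 0.05, with the list's median in red. The medians run from 0.63 for MHC class I through 0.58 for osteoclast signalling and mitosis and 0.03 for oxidative phosphorylation to -1.14 for collagens and -1.41 for contractile genes.

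Of 26 targets of p53, the tumour suppressor that halts the cycle or kills damaged cells, 11 were lower and none was higher, with a median of -0.26 log2, and the count was 6 without 20-month replicate 3. Pmaip1 (NOXA), which triggers cell death, stood at 51.2, 49.8 and 53.3 against 139, 164 and 139.9 TPM (-1.49 ± 0.19, adjusted p = 1.32e-05). Ccng1 (cyclin G1) stood at 165, 165 and 179 against 279, 298 and 290.1 TPM (-0.76 ± 0.14, adjusted p = 0.000702). The targets used most often as readouts were not called, Cdkn1a (p21) at 315, 316 and 312 against 373, 363 and 373 TPM (-0.23 ± 0.11, adjusted p = 0.172) and Mdm2 at 238, 258 and 239.5 against 276, 292 and 286 TPM (-0.22 ± 0.14, adjusted p = 0.32), although their groups did not overlap. Both were called lower with the spread of the 2-day libraries alone.

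Of 15 CDK inhibitor and senescence genes, 3 were higher and 3 lower, and with 1 library left out 1 to 2 were higher and 1 to 3 lower. Cdkn2a, the p16 and p19 locus, stood at 9.77, 10.9 and 15.04 TPM at 20 months and 38.5, 26.7 and 27.5 TPM at 6 months (-1.29 ± 0.26, adjusted p = 0.0013). Each 20-month library was lower than each 6-month one, the highest 6-month value being in replicate 1. Lmnb1, the lamin whose loss accompanies senescence, was higher (40.1, 50.1 and 36.8 against 23.9, 26.5 and 25.001 TPM, 0.71 ± 0.17, adjusted p = 0.00483). Of 12 telomerase and shelterin genes tested, Tinf2 (0.33 ± 0.11) and Pot1b (0.50 ± 0.17) were called higher. Neither was called with the TPM unscaled or under another scaling, and the fits without 1 library called none of the 12, except 1 gene without 6-month replicate 3.

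Antibody chains are made by B cells and plasma cells from a rearranged variable segment joined to a constant region. Of 12 constant regions, 5 did not pass the filter on low values. Of the 7 that did, 6 were higher at 20 months, but members such as Ighg2b and Ighg2c were at or near 0 at 6 months and passed with their 20-month level counted, so the count is only a description. Igkc, the kappa light-chain constant region (GRCm38 chromosome 6 at 70726435 to 70726966), stood at 70.9, 74.1 and 97.5 TPM at 20 months and 1.59, 5.86 and 1.498 TPM at 6 months (4.41 ± 0.30, adjusted p = 4.99e-10), or 21.2-fold. Ighg2c was at 15.4, 9.80 and 8.70 TPM at 20 months and listed at 0 in the 6-month libraries, and Ighg2b was at 16.4, 21.9 and 17.4 against 0, 0.110 and 0 TPM. Every 20-month library held these transcripts and no 6-month library approached them.

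Ighm, the IgM chain of unswitched cells, stood at 12.7, 8.09 and 7.12 against 0, 0.0750 and 0.0779 TPM, and Igha, the mucosal IgA chain, at 8.48, 8.07 and 3.57 against 0.604, 0.558 and 0.577 TPM. Ighg1 varied widely at 0.364, 14.6 and 27.9 against 0, 3.34 and 1.19 TPM, its groups overlapped, and its call (1.91 ± 0.59) was lost without 20-month replicates 3 or 4 or 6-month replicates 1 or 3. Summed over 429 immunoglobulin genes the level was 349, 333 and 470.0 TPM at 20 months and 9.16, 14.6 and 22.2 TPM at 6 months. These genes share long stretches of sequence, and the split of reads between them is uncertain.

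Of 377 variable segments, 40, 29 and 49 were above 0 in the 20-month libraries and 3, 3 and 6 in the 6-month ones. Over the 20-month libraries 79 segments were seen, 49 of them in 1 library, 21 in 2 and 9 in all 3. The highest segment differed by library, Igkv8-30 at 19.9 TPM in replicate 2, Igkv9-120 at 21.8 TPM in replicate 3 and Ighv1-82 at 30.9 TPM in replicate 4. Of 12 segments seen at 6 months, none was in all 3 libraries, and 7 were shared with the older age. Igkv3-2, at 10.97, 13.9 and 16.3 TPM at 20 months, was listed at 0 in all 3 libraries at 6 months.

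Several defining markers of the cells that make antibody were at or near 0 beside these values. Of 16 B cell markers 3 passed the filter on low values and none was called. Their sum was 303 to 382 TPM at 20 months and 219 to 297 TPM at 6 months, nearly all of it Cd72, which was at 288, 301 and 365 against 281, 246 and 205 TPM (0.39 ± 0.19, adjusted p = 0.178). Cr2, Fcer2a and Vpreb3 were listed at 0 in all 6 libraries, and Cd79a and Ms4a1 (CD20) reached at most 0.458 and 0.234 TPM. Of the 10 plasma cell markers, 5 were tested, with Tnfrsf13b higher (0.99 ± 0.24) and Fkbp11 lower (-0.97 ± 0.30, lost in 5 of the 6 fits without 1 library, adjusted p up to 0.0996), and summed 272 to 278 TPM against 283 to 296 TPM. Jchain, the joining chain of secreted antibody, was at 2.69, 2.08 and 2.31 TPM at 20 months and 0.355, 0.0819 and 0.170 TPM at 6 months, below the filter. With the filter taken from the 2-day libraries, 6 plasma cell markers were tested, of which 2 were higher and 1 was lower. Tnfrsf17 (BCMA) was listed at 0 throughout. The share of B lineage cells in the immunoglobulin difference was not tested.

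**Figure D4:**
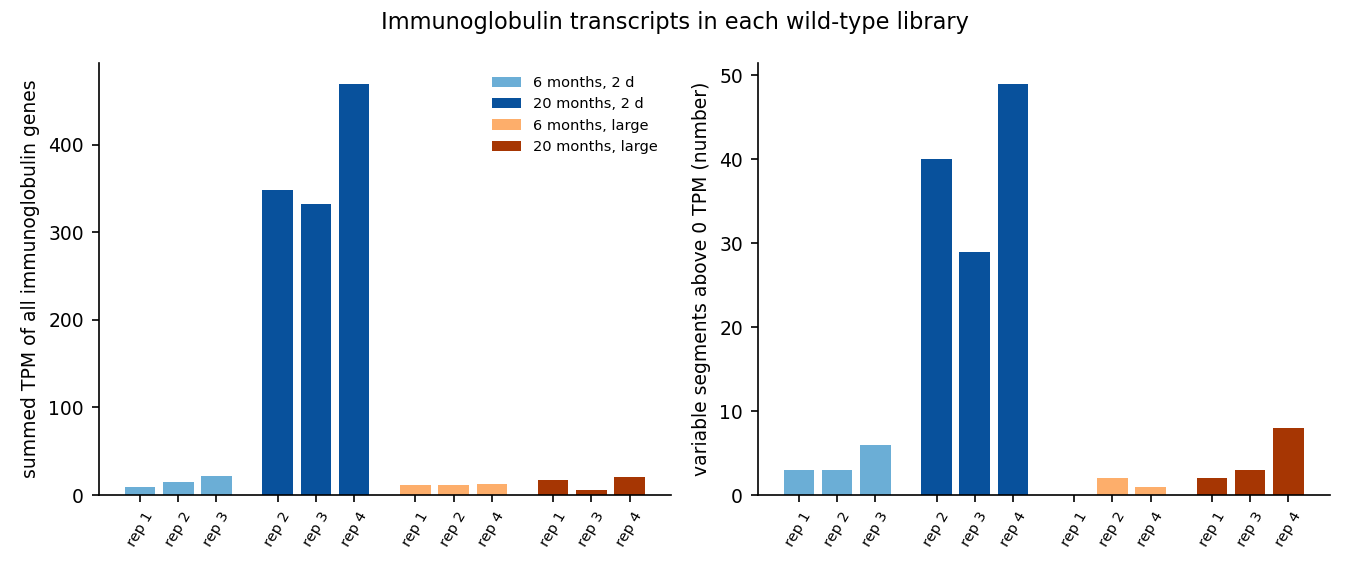
Bars are single wild-type libraries, coloured by age and harvest. The left panel gives the summed TPM of 429 immunoglobulin genes, 333 to 470.0 in the 20-month 2-day libraries and at most 22.2 in the 9 others, and the right panel the number of 377 variable segments above 0 TPM, 29 to 49 against at most 8.

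S100a9, a subunit of the calprotectin protein of neutrophils, rose in the same libraries (GRCm38 chromosome 3 at 90692632 to 90695721). It stood at 18.3, 60.2 and 19.2 TPM at 20 months and 0, 0.396 and 0 TPM at 6 months (4.39 ± 0.38, adjusted p = 4.45e-08). S100a9 passed the filter on low values with its 20-month level counted, so its call is only a description. Its partner S100a8 overlapped between the ages at 127, 142 and 172 against 171, 91.6 and 84.2 TPM (0.41 ± 0.59, adjusted p = 0.726). Of 17 neutrophil markers 5 were tested and S100a9 was the only one called (3 were called with a filter set on the 2-day libraries and 6 with none), with sums of 182 to 252 TPM at 20 months and 111 to 218 TPM at 6 months. Ngp, a granule protein, was at 2.59, 7.71 and 0.273 TPM at 20 months and listed at 0 at 6 months, with 20-month replicate 3 highest for both it and S100a9. Elane, Mpo and Retnlg, which define neutrophils and their precursors, were listed at 0 in all 6 libraries, and the part of neutrophils was not tested.

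Of 12 genes of the MHC class I pathway, 7 were higher and none was lower, with a median of 0.63 log2. Psmb8, an immunoproteasome subunit that cuts peptides for display, stood at 92.6, 121 and 96.4 against 53.2, 48.9 and 57.9 TPM (0.93 ± 0.19, adjusted p = 0.00113), and the class I heavy chain H2-D1 at 489, 525 and 539 against 335, 307 and 349 TPM (0.65 ± 0.16, adjusted p = 0.00591). Class I genes resemble each other in sequence, which leaves the split between them uncertain. Of 8 class II genes, H2-DMa (0.74 ± 0.18) and H2-DMb1 (0.44 ± 0.13), which load peptide, were higher (4 of the 8 with a pseudocount of 0.1), the latter not without 20-month replicate 3 or 6-month replicates 2 or 3 (adjusted p up to 0.112). Cd74, the invariant chain, was low and not called, at 6.68, 6.19 and 5.01 against 2.19, 2.34 and 2.43 TPM (1.01 ± 0.39, adjusted p = 0.0803). It was called higher with the spread of the 2-day libraries alone (limma adjusted p = 0.000856).

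Of 36 genes of the type I interferon response, 7 were higher and 1 was lower, with a median of 0.50 log2. The transcription factor Stat2 stood at 11.3, 11.02 and 11.3 against 6.56, 6.89 and 6.51 TPM (0.66 ± 0.17, adjusted p = 0.00823) and kept its call with any 1 library left out, and Ifi44 was lower (-0.80 ± 0.20). The count of higher genes was 3 without 20-month replicate 3 or 6-month replicate 1 and 4 without 6-month replicate 2, and 13 with a pseudocount of 0.1. Among 29 inflammatory genes 2 were higher and 4 were lower, and 2 were lower without 6-month replicates 1 or 2 or any one of the 20-month libraries. Il11, a cytokine of stromal cells, stood at 12.4, 17.1 and 10.2 against 38.5, 49.9 and 54.1 TPM (-1.76 ± 0.33, adjusted p = 0.000588), and Tnf, which promotes osteoclast formation, at 48.6, 48.5 and 38.9 against 24.2, 24.9 and 17.3 TPM (1.00 ± 0.26, adjusted p = 0.00952, and 0.0554 without 6-month replicate 3).

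None of 30 oxidative phosphorylation genes and none of 13 mitochondrially encoded genes was called, and the median of the former was 0.03 log2, the same as for all genes tested. With the spread taken from the 2-day libraries alone 1 of the 30 was higher and 2 were lower, and of the 13 mt-Co1 was higher and mt-Nd2 lower. Of 22 glycolysis and hypoxia genes, Ca9 alone was called (0.77 ± 0.21), a call lost without 20-month replicate 3 or 6-month replicates 2 or 3 (adjusted p up to 0.0809). With the spread of the 2-day libraries alone further genes passed, such as Adm, Pdk1 and Slc16a3 (limma adjusted p of 0.00378, 0.00611 and 0.0022). Cholesterol synthesis genes were lower in 5 of 19. Of 14 imprinted genes 3 were lower, among them the neighbouring noncoding RNAs Rian (4.68, 3.34 and 3.44 against 23.6, 22.9 and 21.5 TPM, -2.24 ± 0.39) and Meg3 (1.46, 2.89 and 2.70 against 11.04, 11.8 and 11.2 TPM, -1.82 ± 0.37).

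Of 12 genes of mucin-type O-glycosylation, 2 were higher and 2 were lower. Galnt16, an enzyme that starts mucin-type sugar chains, stood at 1.25, 0.938 and 1.30 against 12.99, 14.2 and 11.8 TPM (-2.55 ± 0.17, adjusted p = 5.69e-10). Its relative Galnt18 stood at 9.79, 9.14 and 9.81 against 59.3, 52.3 and 47.5 TPM (-2.32 ± 0.32, adjusted p = 2.66e-05). Of the same family, Galnt6 (26.1, 27.6 and 25.4 against 13.5, 12.9 and 14.1 TPM, 0.90 ± 0.10) and Galnt3 (1.31 ± 0.32) were higher. Lurap1l (-2.53 ± 0.22), the protease gene Prss23 (-2.17 ± 0.28), the netrin gene Ntn4 (-2.16 ± 0.23), the microfibril gene Mfap5 (-2.16 ± 0.42), Fam198b (-2.18 ± 0.28) and the potassium channel gene Kcnk2 (-2.13 ± 0.42) completed the lower genes chosen by rank.

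Of the largest rises, Napsa, an aspartic protease related to cathepsin D, stood at 14.8, 17.04 and 15.03 against 3.21, 1.93 and 2.77 TPM (2.13 ± 0.17, adjusted p = 1.31e-08). Ifitm1, an interferon-induced membrane protein, stood at 16.98, 25.1 and 23.5 against 2.93, 1.83 and 3.57 TPM (2.52 ± 0.47, adjusted p = 0.000588). Tmem254a was at 4.74, 12.1 and 5.0001 TPM at 20 months and listed at 0 at 6 months, while its near-identical copy Tmem254c stood at 0.479, 4.45 and 0 against 7.78, 7.93 and 7.60 TPM, and the assignment of reads to either copy is uncertain. The abundant transcripts Fth1 and Ftl1 (ferritin), Eef1a1, Tmsb4x, Spp1, mt-Co1 and mt-Atp8 had no called difference, but with the spread of the 2-day libraries alone Fth1, Ftl1, Tmsb4x, Spp1 and mt-Co1 were called higher.

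The same ages were also compared in wild-type cultures with large cells, with 3 libraries each and none shared with the 2-day comparison. There 27.6% of the 12614 genes were called, 11.4% higher at 20 months and 16.2% lower. The 6-month large-cell group was uneven. Its replicate 2 had 3.43% mitochondrial TPM against 8.70 to 10.2% in the 5 others, and a mean correlation with its own group of 0.910. Values are therefore also given without it, and with the spread taken from the 6 large-cell libraries alone, which called 181 genes in large cells in place of 3482. Whether the age difference at 2 days differed from that in large cells was tested gene by gene, and 25.5% of genes passed, 14.3% with the more positive age difference at 2 days and 11.2% with the more negative.

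All 24 mitosis genes were lower at 20 months in large cells (median -1.64 log2) where 14 were higher at 2 days, and the difference between the stages passed for all 24, also without 6-month large-cell replicate 2. With the spread of the large-cell libraries alone 15 of the 24 and 11 of the 28 replication genes were lower. Of the 28 replication genes, 25 were lower in large cells and 27 passed the test of the difference, 26 without that library. Mki67 averaged 8.15 TPM at 20 months and 24.3 TPM at 6 months in large cells, against 63.3 and 32.7 TPM at 2 days, and the difference between the age effects was 2.60 ± 0.31 log2 (adjusted p = 2.66e-06).

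Collagens had the opposite signs. In large cells, 10 of 19 were higher at 20 months (median 1.13 log2), 8 without 6-month replicate 2 and 6 with the spread of the large-cell libraries alone, and 14 passed the test with the more negative value at 2 days, 15 without it. Col1a1 stood at 1634, 1325 and 1511 TPM in the 20-month large-cell libraries and 402, 272 and 332 TPM in the 6-month ones, so the older cultures were the lower at 2 days and the higher later (difference -3.16 ± 0.51 log2, adjusted p = 8.24e-05). Itga11 stood at 42.1, 22.3 and 43.0 against 5.67, 3.47 and 3.99 TPM in large cells (difference -4.71 ± 0.43 log2, adjusted p = 8.21e-08).

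Of 22 contractile genes, in large cells 4 were higher and none was lower (median -0.08 log2, 0.096 without 6-month replicate 2), 1 with the spread of those libraries alone, and 12 passed the test with the more negative age difference at 2 days, 16 without 6-month replicate 2. Acta2 averaged 1877 against 1569 TPM in large cells before scaling, and the fit on scaled values, in which the scale factor of 6-month replicate 2 was 0.692 and those of the other 5 libraries 1.05 to 1.22, gave -0.05 ± 0.42 (adjusted p = 0.937). Lysosome genes had 10 higher and 5 lower in large cells, 6 and 3 without 6-month replicate 2 and none with the spread of those libraries alone, and 16 of 43 passed the test with the more positive age difference at 2 days.

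Acp5 stood at 7623, 12058 and 7908 TPM in 20-month and 5679.9, 4668 and 4553 TPM in 6-month large-cell libraries (0.54 ± 0.31, adjusted p = 0.19), with a difference between the age effects of 2.36 ± 0.44 log2 (adjusted p = 0.000455). Dcstamp stood at 81.5, 93.7 and 62.6 against 126, 52.7 and 79.7 TPM in large cells, where the ages overlapped, and its age effects differed by 2.56 ± 0.43 log2 (adjusted p = 0.000125). For Ctsk the same difference was 1.63 ± 0.39 (adjusted p = 0.00385). In the 6 large-cell libraries all immunoglobulin genes together made up 5.27 to 20.4 TPM, and S100a9 was listed at 0. Of the 7 constant regions tested, 3 were higher at 20 months in large cells and 2, Ighm and Igha, were lower. Ighm averaged 2.24 against 8.63 TPM there, and Igha 0.269 against 1.74 TPM. With the spread of the large-cell libraries alone 0 of the 7 were called.

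**Figure D5:**
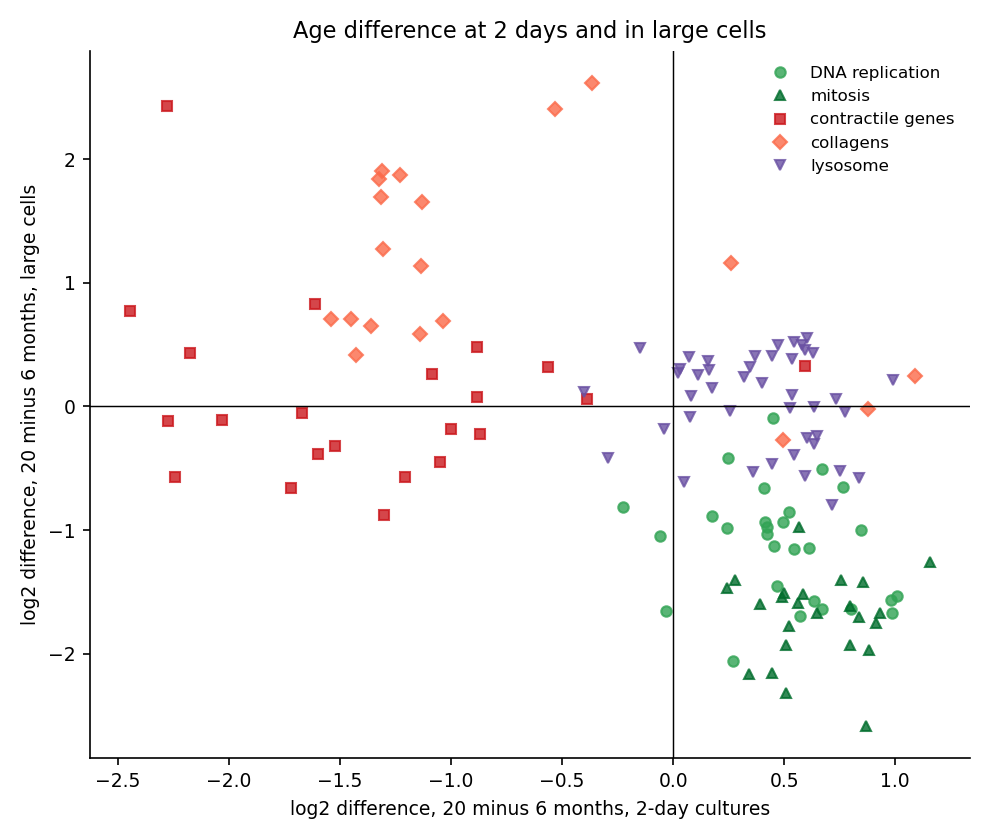
Each point is a gene, placed by its log2 age difference (20 minus 6 months) at 2 days on the horizontal axis and in large cells on the vertical axis, for 5 lists. Mitosis and replication genes lie at the lower right (medians 0.58 and 0.48 at 2 days, -1.64 and -1.04 in large cells), collagens at the upper left (-1.14 and 1.13), and contractile genes to the left and near 0 vertically (-1.41 and -0.08).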

How the data were processed

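The authors deposited 1 expression table for each of 5 sets of libraries, each with 45706 genes and covering 30 libraries in all. No header names the unit. Each column has the range and total of TPM, and on that ground the deposited values were used as TPM, with no step of the authors stated in the headers. The submitters' processing notes name HTSeq and mm10. The aligner and the annotation are not given in the sources used here. Read counts were not used here, so the depth of each library is unknown and no counting interval can be given.

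TPM was divided by an unweighted trimmed-mean scale factor (30% of ratios and 5% of levels trimmed), and log2(value + 1) was fitted with limma 3.58.1 in R 4.3.3. The fit had 10 group means over all 30 libraries, a mean-variance trend and robust moderation, for the 12614 genes with a mean of 1 TPM or more. The residual degrees of freedom were 20. Benjamini-Hochberg adjusted p under 0.05 counted as called. The fit was checked on simulated data that gave each gene the same spread in every group, so the check does not cover groups of unequal spread. Tables and figures were made with Python 3.11.15, pandas 2.3.3, numpy 2.4.6 and matplotlib 3.10.9. Positions are those of GRCm38 (mm10), and promoters are the 250 bases before each RefSeq start (GRCm38.p6).

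The members and gene lists were chosen with earlier results of these data known. Genes named were the 15 highest and 15 lowest called genes with a mean of 5 TPM or more in the higher group and groups that did not overlap, genes at 0 in 1 group, all members or up to 8 of each list, the 8 highest and 8 lowest in the test of the difference between stages, and the 10 highest levels. Predicted genes and sex-linked genes were left out of the ranks. Not every gene that meets this rule is printed, and a few are not reported here. Other named genes, such as Acta2, Tagln, Myl9, Ngp and Jchain, were chosen after their values were seen. Alternatives were the scaling, the pseudocount (0.1), the filter, the libraries in the fit, the replicate block and leaving out each library. Gene symbols were matched for 45143 IDs and not for 563.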

Additional observations from a re-analysis of the deposited data

Results flagged for a closer look

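For 39 of the genes named by size, the age difference at 2 days differed from the age difference in large cells by limma's test of that difference (Benjamini-Hochberg adjusted p under 0.05), and each also passed without 6-month large-cell replicate 2, the library that stands apart. Those chosen for the size of this difference had to pass the test to be chosen. The others were chosen for the size of the 2-day difference, so that passing follows in part from the choice. The values are therefore a description. The values are the log2 age difference (20 minus 6 months) at 2 days minus that in large cells. Immunoglobulin genes had the more positive difference at 2 days, namely Igkc (2.81), Ighg2b (3.11), Igkv3-2 (3.55), Ighg2c (2.58), Ighv1-82 (3.25), Ighm (4.81) and Igha (3.27). So had the osteoclast genes Acp5 (2.36), Atp6v0d2 (2.38), Ctsk (1.63) and Dcstamp (2.56). Ighm and Igha were higher at 20 months at 2 days but lower in large cells (-1.84 and -1.23 log2). The others with a more positive difference at 2 days were S100a9 (4.39), Ifitm1 (2.12), Napsa (3.09), Cep85 (3.94), Slc6a4 (3.84), Rpph1 (3.78) and Birc5 (3.45). For Cep85, Slc6a4, Rpph1 and Birc5 the larger part of the value lay in large cells. The age differences there were -2.34, -3.01, -4.30 and -2.58 log2, against 1.60, 0.83, -0.51 and 0.87 at 2 days. Rpph1 was not called at 2 days. S100a9 is a neutrophil and monocyte protein, and Birc5 (survivin) acts in mitosis. Igkv3-2, Ighv1-82 and S100a9 were listed at 0 in all large-cell libraries of these ages. Their values therefore repeat the 2-day difference, and they passed the filter on low values with their 20-month level counted.

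Contractile and adhesion genes had the more negative difference at 2 days, namely Mylk (-2.61), Lmod1 (-2.16), Cnn1 (-1.67), Fhl1 (-3.22) and Itga11 (-4.71). Genes of matrix proteins and of proteases that act on the matrix or on growth factors did too, namely Thbs2 (-4.24), Adamts4 (-3.80), Mfap5 (-1.89), Ntn4 (-2.37), Prss23 (-2.55) and Pappa (-3.49). The others were Galnt16 (-2.20), Lurap1l (-3.06), Galnt18 (-1.32), Rian (-3.08), Fam198b (-2.61), Kcnk2 (-2.20), Tmem254c (-4.27), Aldh1l2 (-3.77), Medag (-3.37) and Gzmd (-3.30). Tmem254c has a near-identical copy, and its value is uncertain.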

How the results depend on the processing

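Of the genes called in the comparison and followed one by one (197 at 2 days and 16 for the difference between the stages), none changed sign under an alternative. In large cells the median of 6 lists changed sign without 6-month replicate 2, from -0.08 to 0.096 for contractile genes, from 0.12 to -0.00073 for lysosome genes, from 0.19 to -0.15 for mitochondrially encoded genes, from 0.15 to -0.18 for mucin-type O-glycosylation, from 0.12 to -0.16 for the IL-1 receptor family and from -0.046 to 0.030 for CDK inhibitors and senescence. The 2213 genes called at 2 days became 4680 with the spread of the compared groups alone and 4780 when the filter was also taken from the 2-day libraries, an alternative added after the data were seen, and the cause was not tested. Leaving out 1 library gave 1292 to 1746. The 3482 calls in large cells became 181 with the compared groups alone, 2279 without the groups whose titles carry an extra mark, and 2162 to 6342 with 1 library left out, the highest without 6-month replicate 1. The 3220 calls for the difference between the stages became 2037 with the compared groups alone and 2490 to 5178 with 1 library left out. The 235 list members called became 394 and 398 with the compared groups alone, without and with the 2-day filter, and 147 to 188 with 1 library left out. Of 197 called genes followed one by one at 2 days, 62 lost the call in at least 1 fit without 1 library and 48 in at least 1 other alternative. None of the 16 followed for the difference did. The replicate numbers 2 and 3 are shared by the ages, but same-numbered libraries hardly deviated together (correlations 0.0523 and 0.0756), so the number was not taken as a pairing. With the replicate block 2530 genes were called at 2 days, with 13 collagen processing genes lower in place of 8 and 8 matrix proteases and inhibitors lower in place of 5.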

Other observations

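Genes outside the lists, chosen after their values were seen, also differed between the ages at 2 days, and each was called with any 1 of the 6 libraries left out. S100a4, a calcium-binding protein of motile cells, stood at 1280.1, 1710.4 and 1243 TPM at 20 months and 502, 294 and 713 TPM at 6 months (1.56 ± 0.32 log2, limma adjusted p = 0.00158). Gpnmb, a membrane glycoprotein of macrophages and osteoclasts, stood at 341, 381 and 373 against 162.9, 140.5 and 188 TPM (1.16 ± 0.20, limma adjusted p = 0.000248). Cxcr4, the chemokine receptor that holds cells in marrow, stood at 111, 118 and 105 against 48.5, 41.9 and 54.4 TPM (1.19 ± 0.23, limma adjusted p = 0.000964). The groups did not overlap for these 3 genes.

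Among lower genes, Edn1 (endothelin 1), a peptide that makes vessels contract, stood at 9.10, 5.82 and 9.22 against 37.2, 42.2 and 32.9 TPM (-2.07 ± 0.34, limma adjusted p = 0.000182). F3 (tissue factor), which starts clotting, stood at 11.8, 9.69 and 12.2 against 48.3, 66.3 and 39.5 TPM (-2.05 ± 0.27, limma adjusted p = 1.77e-05). Egfr, the receptor for epidermal growth factor, stood at 26.1, 19.3 and 21.2 against 65.2, 75.4 and 59.5 TPM (-1.54 ± 0.26, limma adjusted p = 0.000258). All 3 were lower in every 20-month library.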
